A study of Mus musculus with 2 samples.

Results

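Droplet barcodes in which over 20% of the unique molecular identifiers (UMIs, tags that count single captured RNA molecules) came from mitochondrially encoded genes were examined in single-cell RNA sequencing libraries of mouse liver. A barcode was a member when it had at least 500 UMIs and more than 20% of them fell in genes whose symbol starts with mt-. By this rule 4022 of 33125 barcodes were members. The rule used the mitochondrial share itself, so mitochondrial levels of the members, and the depths that enter that share, are given as a description. The cells were the non-parenchymal fraction of the liver, meaning cells other than hepatocytes, from male mice aged 5 months and fed standard chow. Collagenase was used to dissociate the livers, v3 chemistry of 10x Genomics to capture the cells, and a NextSeq 500 to read the libraries. In Hep-ADKTg mice the albumin promoter drives extra adenosine kinase, encoded by Adk, in hepatocytes; Hep-ADKWT mice served as controls. There was 1 library per genotype and the labels do not give the number of mice behind it, so genotype, animal, preparation and library cannot be told apart, no test between groups was possible, and all intervals cover counting error only.

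The mitochondrial genome encodes subunits of respiratory chain complexes I, III and IV and of the ATP synthase, together with the transfer and ribosomal RNAs needed to translate them inside the organelle. Its protein-coding genes are transcribed in long precursors that are cut largely at the transfer RNAs between them, and most of the messages are then polyadenylated. Hepatocytes are rich in mitochondria, which house the urea cycle's first steps and fatty acid oxidation. A high share of mitochondrial transcripts in a droplet is commonly used as a sign of a damaged cell whose cytosolic RNA was lost, and such barcodes are usually removed before analysis.

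All 13 mitochondrial protein-coding genes were in the count tables, whereas the 22 transfer RNA and 2 ribosomal RNA genes of the mitochondrial genome were not, so the mitochondrial share is a share of messages. One stretch of the mitochondrial genome is printed here because of its neighbouring genes, mt-Nd3 and mt-Nd4l. Of the 13 genes, their shares had the largest log2 ratios between the members of the libraries, in opposite directions (values given with the make-up of the mitochondrial UMIs). Both genes encode subunits of complex I, and mt-Tr, the gene of the arginine transfer RNA, lies between them with 1 base on each side. The sequences are those of GRCm38, plus strand, 5′ to 3′, with runs of at least 5 adenines in capitals.
mt-Nd3, last 150 bases, chrM:9657-9806: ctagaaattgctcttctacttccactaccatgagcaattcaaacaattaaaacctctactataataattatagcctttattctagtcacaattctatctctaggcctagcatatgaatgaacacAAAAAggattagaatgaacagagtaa
mt-Tr, chrM:9808-9875: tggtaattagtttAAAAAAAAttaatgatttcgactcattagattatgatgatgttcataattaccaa
mt-Nd4l, chrM:9877-10173: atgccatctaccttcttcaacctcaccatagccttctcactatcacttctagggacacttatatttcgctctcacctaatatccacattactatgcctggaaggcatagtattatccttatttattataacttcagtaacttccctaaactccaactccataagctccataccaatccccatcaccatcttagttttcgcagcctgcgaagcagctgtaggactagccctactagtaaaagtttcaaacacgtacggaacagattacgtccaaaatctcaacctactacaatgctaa
The end of mt-Nd3 holds a run of 5 adenines, mt-Tr a run of 8, and the longest run in mt-Nd4l is 4 bases. The last 7 bases of mt-Nd4l are also the first bases of mt-Nd4. Whether these features bear on the counts was not tested.

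In the Hep-ADKWT library 1418 of 15663 barcodes were members (9.05%, exact 95% interval 8.61 to 9.51%). In the Hep-ADKTg library 2604 of 17462 were (14.9%, 14.4 to 15.4%). The members held 42.9% of the mitochondrial UMIs of the Hep-ADKWT library and 51.5% of those of the Hep-ADKTg library, but only 5.67% and 17.5% of all UMIs. Their mitochondrial share had a median of 63.4% and a maximum of 98.2% in Hep-ADKWT, and a median of 41.5% and a maximum of 96.6% in Hep-ADKTg.

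The members of the Hep-ADKWT library were thus fewer and reached further into extreme shares. They were also poorer in other RNA: the median barcode had 378.5 non-mitochondrial UMIs in Hep-ADKWT and 628.5 in Hep-ADKTg. In all, the median member had 985 UMIs in Hep-ADKWT and 1291 in Hep-ADKTg, against 4832 and 2812 in the barcodes at or under 20%. Fewer than 200 genes were detected in 589 Hep-ADKWT members (41.5%) and in 31 Hep-ADKTg members (1.19%). With a minimum of 200 genes the shares over 20% were 6.01% in Hep-ADKWT and 14.8% in Hep-ADKTg, so the gap between the libraries widened. At a threshold of 50% in place of 20% the order turned, with 5.29% of barcodes in Hep-ADKWT and 4.98% in Hep-ADKTg.

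**Figure D1:**
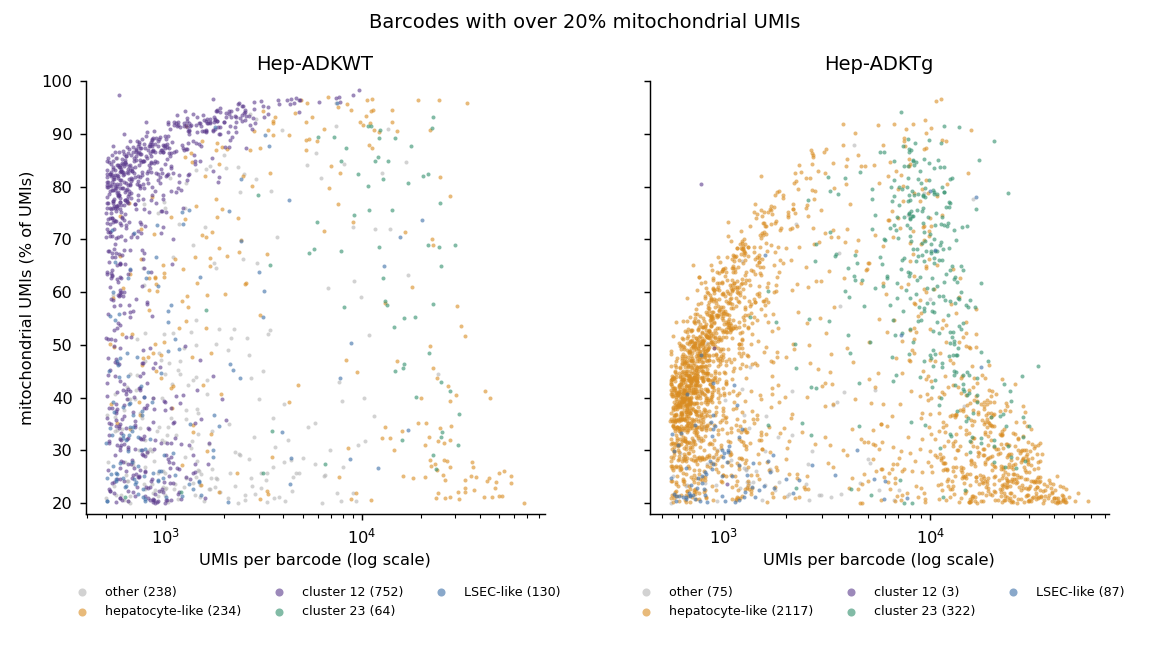
Each point is 1 barcode over 20% mitochondrial UMIs, placed by its UMIs (log scale) and its mitochondrial share, with the Hep-ADKWT library on the left and the Hep-ADKTg library on the right; colours mark the cluster or class it fell in. Hep-ADKWT members crowd at low depth in cluster 12 (752 barcodes), whereas Hep-ADKTg members form a shallow hepatocyte-like arm and a deep one.

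Members lay at both ends of the depth range. In Hep-ADKWT 37.0% of barcodes with 500 to 1000 UMIs were over 20%, 1.5% of those with 5000 to 10000 UMIs, and 6.91% of those with at least 10000 UMIs. In Hep-ADKTg the shares were 22.7%, 11.4% and 29.4%. The deep end therefore carried much more of the membership in Hep-ADKTg, where 636 members (24.4%) had at least 10000 UMIs against 153 (10.8%) in Hep-ADKWT. Hepatocyte-like barcodes, defined below by their markers, made up 74.5% of those deep Hep-ADKTg members and 60.1% of the deep Hep-ADKWT members. Of the 1056 Hep-ADKTg members under 1000 UMIs, 93.7% were hepatocyte-like, against 5.23% of the 727 Hep-ADKWT members at that depth. Of these shallow Hep-ADKWT members 532 (73.2%) lay in cluster 12, described below, which was left unnamed, so this contrast rests on the names of the clusters.

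Around the threshold itself the libraries were also unlike. Between 20% and 22% lay 80 Hep-ADKWT members with a median of 1043.5 UMIs, and 97 barcodes lay between 18% and 20% with a median of 1226 UMIs. In Hep-ADKTg 176 members lay just over the threshold, with a median of 12221 UMIs, and 233 barcodes just under it, with a median of 19331 UMIs. Hepatocyte-like barcodes made up 82.0% of those just under and 77.8% of those just over in Hep-ADKTg, so the line of 20% ran through the deep hepatocyte-like barcodes of that library. Barcode sequences found in both libraries numbered 88 (0.562% and 0.504% of the barcodes), of which 6 were members in Hep-ADKWT and 17 in Hep-ADKTg, and 2 were members in both.

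By marker genes the members were rich in hepatocyte transcripts, although the suspension is labelled as non-parenchymal cells. The 14 hepatocyte markers, among them Alb, the plasma protein albumin, Cps1, the first enzyme of the urea cycle, and Cyp2e1, a pericentral cytochrome P450, summed to 99215 CPM (UMIs per 1000000 non-mitochondrial UMIs of the set of barcodes) over all Hep-ADKWT members. They summed to 8878 CPM in the Hep-ADKWT barcodes at or under 20%. In Hep-ADKTg the sums were 114427 and 63810 CPM. Hepatocyte messages thus filled a similar share of the members' pooled non-mitochondrial RNA in both libraries, while the rest of the barcodes differed. Deep barcodes weigh most in such sums, which do not give the level of a typical member. In Hep-ADKWT the 57 members of the deep cluster 8, described below, were 4.02% of the members and held 154401 hepatocyte marker UMIs. In the 230 members of cluster 12 at 20 to 60%, also described below, the markers summed to 19962 CPM. Markers of liver sinusoidal endothelial cells (LSECs), such as Stab2 and Clec4g, summed to 1340 CPM in Hep-ADKWT members and 346 CPM in Hep-ADKTg members, and T cell markers to 370 and 53.7 CPM. Against the level in LSEC-like and lymphocyte-like barcodes of the same library at or under 20%, these sums were 5.05% and 1.39% for LSEC markers and 6.31% and 1.0% for T cell markers. The sums over all members use no clustering.

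Barcodes were then grouped into 40 clusters with the mitochondrial genes left out, and clusters were given a class name only where their markers allowed it. Since the clusters were formed from the other genes of these same barcodes, levels of those genes between clusters are a description. Hepatocyte-like clusters held 2117 of the 2604 Hep-ADKTg members (81.3%) and 234 of the 1418 Hep-ADKWT members (16.5%). Clusters left without a name held 339 Hep-ADKTg members (13.0%) and 866 Hep-ADKWT members (61.1%). The class share depended on the clustering: with finer clusters (resolution 2.0) 39.6% of the Hep-ADKTg members were hepatocyte-like and 54.8% unnamed, and with that library clustered alone 12.0% and 80.3%. In Hep-ADKWT the hepatocyte-like share was 10.6% with finer clusters and 7.19% with mitochondrial genes kept.

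Within the hepatocyte-like class 234 of 569 Hep-ADKWT barcodes were over 20% (41.1%, 37.0 to 45.3%), and 2117 of 7913 Hep-ADKTg barcodes (26.8%, 25.8 to 27.7%). The class was a small part of the Hep-ADKWT library, at 2.35% of the barcodes at or under 20% against 39.0% in Hep-ADKTg, and the order of the libraries rests on which clusters were named. Cluster 5, led by Rgn, Akr1c6 and Gsta3, was left unnamed because no hepatocyte marker was among its 10 leading genes, although 7 of the 14 were enriched and hepatocyte was its best class; 44 of its 1252 Hep-ADKWT barcodes and 9 of its 653 Hep-ADKTg barcodes were members. With cluster 5 added to the class, 278 of 1821 Hep-ADKWT barcodes (15.3%, 13.6 to 17%) and 2126 of 8566 Hep-ADKTg barcodes (24.8%, 23.9 to 25.7%) were over 20%, so the order turned. With the unnamed cluster 23, described below, added as well the shares were 18% and 27.3%. Every other named class with at least 1 member in each library had the higher share in Hep-ADKWT, although some rest on few barcodes, such as the vascular endothelial-like class with 1 member of 39 and 2 of 164. Among the resident cells of the sinusoid, 130 of 2000 LSEC-like barcodes (6.50%) were members in Hep-ADKWT and 87 of 2507 (3.47%) in Hep-ADKTg. Of the Kupffer cell-like barcodes, the liver's resident macrophages, 27 of 122 (22.1%, 15.1 to 30.5%) and 21 of 236 (8.90%, 5.59 to 13.3%) were members. Of the stellate cell-like barcodes, which store vitamin A and make matrix on injury, 15 of 60 (25%, 14.7 to 37.9%) and 7 of 158 (4.43%, 1.80 to 8.92%) were.

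Lymphocyte, B cell and neutrophil-like barcodes seldom passed the threshold. Members made up 0.645% of 4498 T, NK or ILC lymphocyte-like barcodes in Hep-ADKWT and 0.194% of 2571 in Hep-ADKTg. For B cell-like barcodes the shares were 0.878% and 0.208%. Monocyte or macrophage-like barcodes reached 6.41% in Hep-ADKWT, close to the 6.50% of LSEC-like barcodes there, and 0.929% in Hep-ADKTg, whereas neutrophil-like barcodes gave 2 members of 344 and 1 of 211. In both libraries the hepatocyte, Kupffer, stellate and fibroblast or mesothelial cell-like classes stood above the lymphocyte, B cell and neutrophil-like classes. As named, the hepatocyte-like class came first in both. With cluster 5 added it stood at 15.3% in Hep-ADKWT. That was below the stellate (25%), Kupffer (22.1%) and fibroblast or mesothelial cell-like (20.3%) classes there. The intervals of these last 3 classes overlapped within each library.

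**Figure D2:**
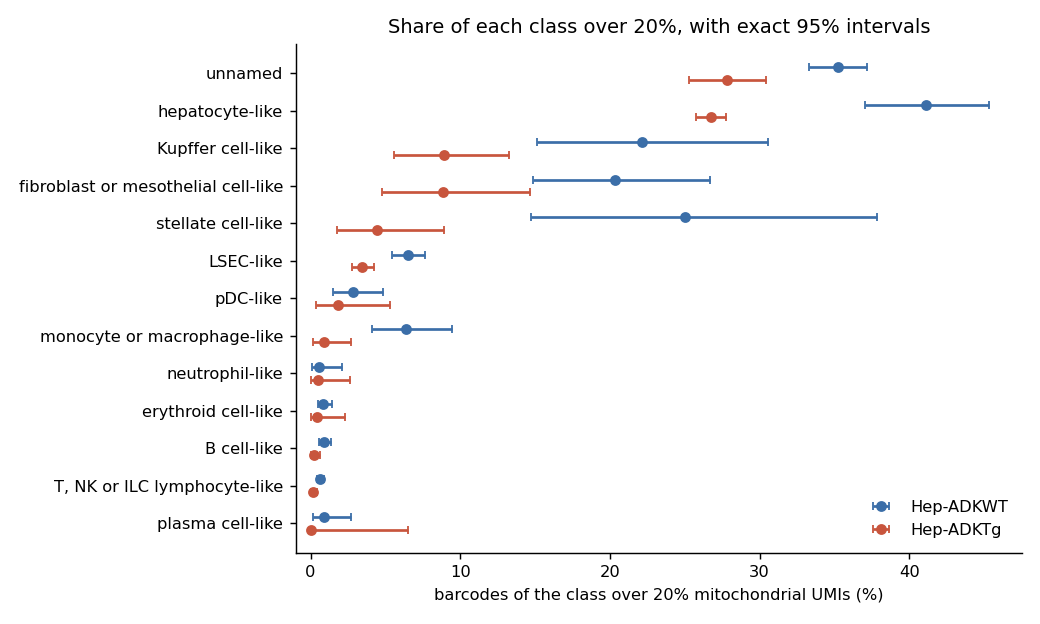
Share of each class over 20% mitochondrial UMIs (%, horizontal axis) in Hep-ADKWT (blue) and Hep-ADKTg (red); points are shares and bars exact 95% intervals for counting error. Hepatocyte-like barcodes (41.1% and 26.8%) stand far above lymphocyte-like barcodes (0.645% and 0.194%).

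The hepatocyte transcripts of the members came from several clusters of very different depth. Cluster 2, led by AY036118, Gm42418, Lars2 and Mup17 and with Cyp2e1 among its leading genes, was shallow and held 1266 Hep-ADKTg members, 48.6% of that library's. AY036118 and Gm42418 are transcripts that overlap ribosomal RNA repeats, and Mup17 encodes a major urinary protein secreted by hepatocytes. In Hep-ADKTg 61.1% of the cluster's 2072 barcodes were members, and in Hep-ADKWT 97 of 114 (85.1%). Its Hep-ADKTg members had medians of 420 non-mitochondrial and 349.5 mitochondrial UMIs, against 622.5 and 18 in its barcodes at or under 20%. So these barcodes held fewer other molecules and many more mitochondrial ones than their neighbours in the cluster.

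Cluster 8, led by Cyp2f2, a periportal cytochrome P450, Mup20, Apoc2, Alb and Hsd17b13, was the deepest. Its Hep-ADKTg members, 354 of 1202 barcodes (29.5%), had medians of 14430.5 non-mitochondrial and 5644.5 mitochondrial UMIs, against 27990 and 4125.5 in its barcodes at or under 20%. Its Hep-ADKWT members, 57 of 131 (43.5%), had medians of 18869 and 7576, against 36223.5 and 6197. In both libraries the deep members therefore carried a smaller number of other molecules beside a modestly larger number of mitochondrial ones. Cluster 20, led by Mup17, Cyp3a11, Cyp2e1 and Cyp1a2, the last 3 being enzymes of the pericentral zone, was over 20% in 266 of 538 Hep-ADKTg barcodes (49.4%) and 40 of 56 Hep-ADKWT barcodes (71.4%). Its Hep-ADKTg members had medians of 6800.5 non-mitochondrial and 5228.5 mitochondrial UMIs, against 14311.5 and 1631.5 at or under 20%.

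Cluster 23 was over 20% in 322 of 409 Hep-ADKTg barcodes (78.7%) and 64 of 78 Hep-ADKWT barcodes (82.1%). It was led by Neat1, a nuclear-retained RNA, Mlxipl, a transcription factor of carbohydrate response, Slc8a1, Abcc2, a canalicular transporter, and Noct. It was left unnamed because none of the 14 hepatocyte markers was among its 10 leading genes, although 9 of the 14 were enriched. Its Hep-ADKTg members had medians of 3100 non-mitochondrial and 6099 mitochondrial UMIs, against 3172 and 83 in its 87 barcodes at or under 20%. Here the members and the rest had nearly the same number of other molecules and differed in the mitochondrial ones. The cluster held 39.4% of the 99 Hep-ADKTg members with over 80% mitochondrial UMIs.

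The largest group of Hep-ADKWT members fell in cluster 12, which was almost entirely of that library: 752 of its 914 Hep-ADKWT barcodes were members (82.3%, 79.6 to 84.7%), and 3 of its 14 Hep-ADKTg barcodes. These 752 barcodes were 53.0% of the Hep-ADKWT members and 76.3% of the 465 with over 80% mitochondrial UMIs. Since nearly all of the cluster came from 1 library, it cannot be told apart from that library. Without cluster 12, 666 of 14749 Hep-ADKWT barcodes (4.52%, 4.19 to 4.86%) were members, 35.1% of them hepatocyte-like, whereas the Hep-ADKTg share stayed at 14.9%.

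The RNA of cluster 12 differed along the mitochondrial share, and not in one direction throughout. In the 37 Hep-ADKWT barcodes at or under 5% and the 27 at 5 to 10%, Malat1, an abundant nuclear-retained RNA, stood at 8392 and 62139 CPM, Ptprc, which encodes the leukocyte surface protein CD45, at 509 and 2117 CPM, and the hepatocyte markers summed to 15914 and 12735 CPM. From the 98 Hep-ADKWT barcodes at 10 to 20% through those at 20 to 40%, 40 to 60%, 60 to 80% and over 80%, the hepatocyte markers summed to 11595, 16798, 31614, 77802 and 90874 CPM. Malat1 stood at 100552, 107469, 79268, 10446 and 4282 CPM over the same steps. Ptprc stood at 3756, 3383, 2686, 384 and 215 CPM. Malat1 and Ptprc were thus low at both ends of the mitochondrial share, and above 40% they were lower and hepatocyte markers higher at each step.

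**Figure D3:**
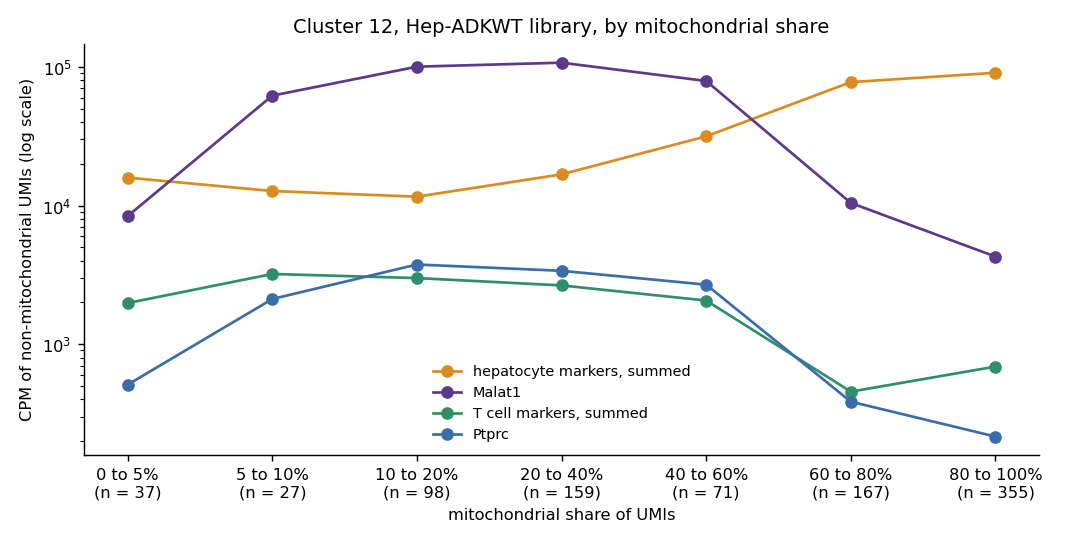
Levels (CPM of non-mitochondrial UMIs, log scale) of Malat1, Ptprc, the summed T cell markers and the summed hepatocyte markers in Hep-ADKWT barcodes of cluster 12, grouped by mitochondrial share on the horizontal axis, with the number of barcodes under each group. From 10 to 20% up to over 80%, hepatocyte markers climb from 11595 to 90874 CPM while Malat1 goes from 100552 to 4282 CPM; at or under 5% Malat1 is at 8392 CPM.

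Divided at 60%, a point chosen after this trend was seen, the 752 barcodes made up sets unlike each other. The 230 at 20 to 60% had a median of 463 non-mitochondrial and 251 mitochondrial UMIs. Their T cell markers summed to 2527 CPM, 43.1% of the level in Hep-ADKWT lymphocyte-like barcodes at or under 20%, Ptprc stood at 3234 CPM (2921 to 3572), and hepatocyte markers summed to 19962 CPM. Those lymphocyte-like barcodes had a median of 223 mitochondrial and 5386 non-mitochondrial UMIs and 1356 CPM of Ptprc. The cluster 12 barcodes at 20 to 60% held a similar median number of mitochondrial molecules to those lymphocyte-like barcodes and far fewer others. Both counts enter the rule and the split at 60%, so this is a description and does not link the sets. The 522 barcodes over 60% had a median of 132 non-mitochondrial and 629 mitochondrial UMIs, and 507 of them had fewer than 200 genes. Their hepatocyte markers summed to 85891 CPM, 69.2% of the level in hepatocyte-like barcodes at or under 20%, while T cell markers summed to 599 CPM and Ptprc to 280 CPM (173 to 427). Gm42418 alone took 105014 CPM there.

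Against the 162 Hep-ADKWT barcodes of cluster 12 at or under 20%, 14.8% of 1123 genes were at least 2-fold higher and 8.64% at least 2-fold lower in its members, on the log2 scale with 10 CPM added that is used below. All 22 genes for secreted hepatocyte proteins, such as albumin and the apolipoproteins, were higher (median 1.92), as were all 22 measured nuclear-encoded respiratory chain genes (0.55). All 36 ribosomal protein genes were lower (−1.08).

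The mitochondrial RNA of these sets differed as well, in a measure the rule did not use. The percentages of mitochondrial UMIs taken by each of the 13 genes were compared between sets of barcodes by summing the absolute differences over the genes, in percentage points. At 20 to 60% cluster 12 was 2.40 points from the lymphocyte-like barcodes at or under 20% and 13.3 points from the cluster 2 members of Hep-ADKWT. Over 60% it was 12.3 and 4.50 points away. For example, mt-Nd2, a complex I subunit, took 5.74% of the mitochondrial UMIs at 20 to 60% and 9.36% over 60%, beside 5.73% in the lymphocyte-like barcodes and 8.69% in the cluster 2 members. Between these references, cluster 12 at 20 to 60% lay nearer to the lymphocyte-like barcodes and over 60% nearer to the cluster 2 members. From the hepatocyte-like cluster 8 members of Hep-ADKWT the sets were 19.9 and 14.3 points away, further than from the lymphocyte-like barcodes. All 752 members were 2.93 points from the LSEC-like cluster 17 members of Hep-ADKWT and 4.11 from the cluster 2 members. They were 13.9 points from hepatocyte-like and 11.0 from lymphocyte-like Hep-ADKWT barcodes at or under 20%. Nearness to cluster 2 was thus not nearness to hepatocyte-like barcodes at large. Other markers at 20 to 60% were not those of lymphocyte-like barcodes alone: B cell markers summed to 1580 CPM, 18.3% of the level in B cell-like barcodes, against 21.9 CPM in the lymphocyte-like barcodes, and erythroid markers to 16977 CPM against 1592 CPM.

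Hepatocyte-like members were next compared with hepatocyte-like barcodes of the same library at or under 20%, for genes other than the mitochondrial ones. UMIs were summed over the barcodes of each side, so deep barcodes weigh most, and ratios are log2 with 10 CPM added to each level. A gene with at least 50 UMIs was called at a ratio of 2-fold or more. In Hep-ADKWT (234 against 335 barcodes) 0.541% of 6650 genes were called higher and 0.165% lower in members, and in Hep-ADKTg (2117 against 5796) 0.231% of 10842 genes were higher and 0.0738% lower. The median over all genes was 0.10 and 0.09. Few genes thus differed by 2-fold in these pooled sums, but the counts depended on the comparison. In Hep-ADKWT 36 genes were higher and 11 lower, against 268 and 115 with a comparison side at or under 10%. As a mean over barcodes they were 413 and 441. In Hep-ADKTg the same counts were 25 and 8, 47 and 38, and 12 and 16. The groups of genes below are read by their direction and median in the pooled sums. Of genes with at least 200 UMIs, in 4 equal classes by transcript length, 25.1%, 56.0%, 64.3% and 80.8% were higher in Hep-ADKWT members. These shares run from the shortest to the longest class. In Hep-ADKTg they were 39.6%, 66.9%, 78.4% and 90.4%. Counts of list genes higher are therefore to be read against these shares, and not against an even split.

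Messages for the protein synthesis machinery were lower in members. All 36 cytoplasmic ribosomal protein genes on the list were lower in both libraries, with medians of −0.39 in Hep-ADKWT and −0.45 in Hep-ADKTg. Rpl41, a protein of the large subunit, stood at 1695 CPM over and 2589 CPM under 20% in Hep-ADKWT, and at 1334 and 2545 CPM in Hep-ADKTg. Of the 36 nuclear-encoded respiratory chain genes, whose products join the mitochondrially encoded subunits in the same complexes, 33 were lower in each library, with medians of −0.35 and −0.44. Cox5a, a subunit of complex IV, stood at 243 CPM (220 to 268) in Hep-ADKWT members against 543 CPM (516 to 570), and at 237 CPM (227 to 248) against 614 CPM (606 to 623) in Hep-ADKTg. Other genes with the lowest ratios in both libraries were Gstp1, a glutathione transferase, Apom, an apolipoprotein of high-density lipoprotein, and the mitochondrial ribosomal protein genes Mrpl34, Mrps18c and Mrps12. Gstp1 stood at 305 against 663 CPM in Hep-ADKWT and 243 against 615 CPM in Hep-ADKTg.

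RNAs that stay in the nucleus were higher in members, in 5 of 6 measured genes in Hep-ADKWT (median 0.54) and 7 of 7 in Hep-ADKTg (0.81). Malat1 stood at 5484 CPM over and 3758 CPM under 20% in Hep-ADKWT, and at 8388 and 4641 CPM in Hep-ADKTg. Neat1, the scaffold of nuclear paraspeckles, stood at 821 against 518 CPM and at 758 against 427 CPM. When levels were instead scaled to all UMIs, mitochondrial ones included, the median over all genes was −0.30 in Hep-ADKWT and −0.07 in Hep-ADKTg and that of the nuclear-retained RNAs was 0.00 and 0.42, so these genes stood above the others on either scale. Immediate early genes, which respond within minutes to stimuli including tissue dissociation, were higher in 10 of 11 genes in Hep-ADKWT (0.39) and 15 of 16 in Hep-ADKTg (0.35). Jun, a subunit of the AP-1 transcription factor, stood at 69.6 against 46.0 CPM and at 93.0 against 46.3 CPM.

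Gene lists of mitochondrial stress and removal mostly stood close to the median of all genes, but the chaperone and protease list stood below it in Hep-ADKWT. Mitochondrial chaperone and protease genes were higher in 3 of 12 in Hep-ADKWT (median −0.16) and 7 of 12 in Hep-ADKTg (0.02). Mitophagy, fission and fusion genes were higher in 7 of 13 and 8 of 14, with medians of 0.08 and 0.03. Intrinsic apoptosis genes were higher in 4 of 7 and 8 of 14, with medians of 0.12 and 0.05. Genes of mitochondrial genome expression and upkeep were higher in 7 of 11 and 12 of 16, with medians of 0.09 and 0.16. Many genes of any kind were higher in members, as given above by length class. These counts therefore do not by themselves mark the lists as raised. None of these genes was called 2-fold in either library. Over all genes only 0.541% were called higher and 0.165% lower in Hep-ADKWT, and 0.231% and 0.0738% in Hep-ADKTg. With such shares, lists this short could hold no call without differing from other genes. Integrated stress response genes were higher in 4 of 4 in Hep-ADKWT (0.40) and 9 of 11 in Hep-ADKTg (0.09), and Gdf15, a stress-induced hormone, was called higher in Hep-ADKTg, at 81.5 against 34.0 CPM.

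Pericentral genes, which are expressed around the central vein under Wnt signalling, were higher in members: 13 of 15 in Hep-ADKWT, 10 of them by 2-fold or more (median 1.30), and 14 of 16 in Hep-ADKTg, 8 of them by 2-fold or more (0.94). Over all genes 0.541% and 0.231% were called higher. Glul, the glutamine synthetase of the pericentral rim, stood at 360 CPM (331 to 390) against 62.5 CPM (53.8 to 72.1) in Hep-ADKWT, and at 159 CPM (151 to 168) against 57.8 CPM (55.2 to 60.4) in Hep-ADKTg. Cyp2a5, another cytochrome P450, stood at 300 against 38.6 CPM and at 153 against 32.9 CPM, and Slc1a2, a glutamate transporter, at 102 against 12.1 CPM and at 64.5 against 10.2 CPM. Periportal genes were higher in 4 of 16 (−0.04) and 11 of 16 (0.12). With many genes of any kind higher in Hep-ADKTg members, the 11 of 16 does not by itself mark periportal genes as raised there.

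The pericentral difference was much smaller within single clusters. Cluster 20, with the pericentral leading genes, was over 20% in a larger share of its barcodes than the periportal-type cluster 8 in both libraries. Within cluster 8 the pericentral median was 0.07 in Hep-ADKWT (5 of 9 higher) and 0.24 in Hep-ADKTg (12 of 14), and within the Hep-ADKTg barcodes of cluster 20 it was 0.35 (14 of 16). In Hep-ADKWT the ratios of Cyp2a5 and Cyp2c37 turned to −0.25 and −0.50 within cluster 8. Barcodes of cluster 20 were also shallower than those of cluster 8, and the part of depth was not tested.

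The ribosomal, respiratory chain and nuclear RNA differences were present within cluster 8 alone, where 0.14% of 5695 genes were called higher and 0.211% lower in Hep-ADKWT (57 against 74 barcodes), and 0.0697% and 0.0996% of 10045 genes in Hep-ADKTg (354 against 848). All 36 ribosomal protein genes were lower in both libraries (medians −0.33 and −0.44). Respiratory chain genes were lower in 31 of 36 in each (−0.17 and −0.37), and nuclear-retained RNAs higher in 5 of 5 and 6 of 6 (0.39 and 0.63). Malat1 stood at 5662 against 3932 CPM in Hep-ADKWT and at 9162 against 5326 CPM in Hep-ADKTg. Lars2, the mitochondrial leucyl-tRNA synthetase, had the highest ratio, at 240 CPM (213 to 270) against 115 CPM (102 to 130) in Hep-ADKWT and 130 CPM (120 to 139) against 59.5 CPM (56.4 to 62.7) in Hep-ADKTg. This was not particular to cluster 8. In LSEC-like Hep-ADKWT barcodes Lars2 stood at 598 CPM at or under 5% mitochondrial UMIs and 1926 CPM at 60 to 80%. Gm42418 stood at 15437 and 39538 CPM there. Pooled over the cluster, hepatocyte markers stood at 130226 against 128809 CPM in Hep-ADKWT and 125374 against 125051 CPM in Hep-ADKTg. This did not hold at higher mitochondrial shares. In Hep-ADKTg clusters 8 and 20 together, they summed to 117653 CPM in 482 barcodes at 20 to 40%. At 40 to 60% (86 barcodes) and 60 to 80% (44 barcodes) the sums were 97667 and 61755 CPM. Thinned to 300 non-mitochondrial UMIs, the cluster 8 members had a median of 212 genes against 209.5 in Hep-ADKWT and 205 against 205 in Hep-ADKTg. The unthinned medians were 3862 against 5016.5 and 3322 against 4424.5.

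Within these deep clusters the ratio also followed the length of the transcript, taken as the longest one annotated for each gene. Genes with at least 200 UMIs were placed in 4 equal classes by length. In cluster 8 the median log2 ratio from the shortest to the longest class was −0.17, 0.04, 0.05 and 0.12 in Hep-ADKWT (2127 genes) and −0.06, 0.11, 0.15 and 0.22 in Hep-ADKTg (7417 genes). In the Hep-ADKTg barcodes of cluster 20 (3805 genes; all genes with at least 50 UMIs had a median of 0.17, with 0.892% called higher and 0.582% lower) it was −0.20, 0.08, 0.21 and 0.37. Across genes, which share libraries and are not independent, Pearson's r of the ratio with log2 length was 0.35, 0.44 and 0.49. Without the ribosomal protein genes the shortest class stood at −0.16, −0.06 and −0.19 on the same scale, so the trend was present without them. In these clusters members thus held relatively fewer short messages and more long ones. In the shallow cluster 2 of Hep-ADKTg (667 genes) the medians were −0.13, 0.06, 0.10 and 0.07 with an r of 0.15, so only the shortest class stood below the others.

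**Figure D4:**
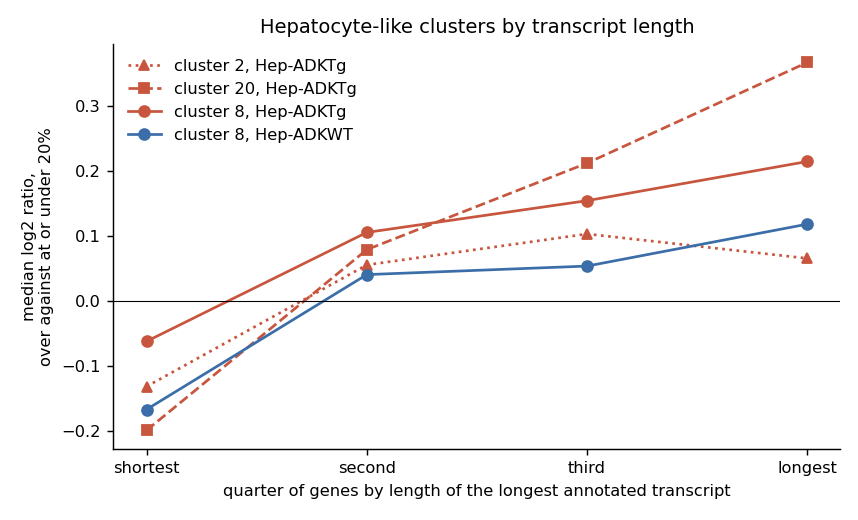
Median log2 ratio (10 CPM added) of members over barcodes at or under 20%, for genes in 4 equal classes by transcript length, in cluster 8 of each library and clusters 20 and 2 of Hep-ADKTg. The medians run from −0.17 to 0.12 and from −0.06 to 0.22 in cluster 8 and from −0.20 to 0.37 in cluster 20 between the shortest and the longest class, and in cluster 2 from −0.13 to 0.07.

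In the shallow cluster 2 of Hep-ADKTg the difference took another form. Members were compared with 806 barcodes at or under 20%, and 0.0776% of 2576 genes were called higher and 8.5% lower. All 36 ribosomal protein genes were again lower (median −0.46), but all 22 secreted hepatocyte protein genes were higher (0.42), and Malat1 was lower, at 4548 against 17246 CPM. Leukocyte genes were lower too, with Ptprc at 113 against 523 CPM and the chemokine gene Ccl5 at 51.4 against 329 CPM. T cell markers summed to 183 CPM in members and 575 CPM in the rest, with all 10 markers seen on each side. B cell markers summed to 68.6 and 271 CPM, and erythroid markers to 1059 and 4899 CPM. So Malat1 was higher in members of the deep cluster 8 and lower in those of the shallow cluster 2. In cluster 2 the comparison side held more leukocyte and erythroid RNA, whose part in the result was not tested. After thinning to 300 UMIs, members of cluster 2 had a median of 186 genes and the rest 204.

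Cluster 23 of Hep-ADKTg resembled cluster 2 in its lower Malat1 (322 against 87 barcodes, 5.66% of 4416 genes called higher and 8.02% lower). It was not shallow: its members had a median of 9781.5 UMIs, against 786 in the Hep-ADKTg members of cluster 2. Malat1 stood at 42423 CPM in its members and 165634 CPM in the rest, and Neat1 at 3832 and 8887 CPM. All 22 secreted protein genes were higher (median 1.35), all 36 ribosomal protein genes lower (−0.73), and 33 of 36 respiratory chain genes higher (0.39). T cell markers summed to 81.8 CPM in members and 471 CPM in the rest, and hepatocyte markers to 115454 and 50545 CPM. Even in members Malat1 was several times its level in cluster 8.

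LSEC-like members were richer in hepatocyte RNA than the rest of their class. Over the whole class 4.21% of 10183 genes were called higher and 9.44% lower in Hep-ADKWT, and 4.84% and 14.4% of 9739 genes in Hep-ADKTg. All 22 secreted hepatocyte protein genes were higher in both (medians 2.58 and 1.27). Serpinc1, which encodes antithrombin, stood at 319 against 31.7 CPM in Hep-ADKWT and 791 against 205 CPM in Hep-ADKTg. Ccl5, a chemokine gene of T and NK cells, stood at 55.8 against 457 CPM and at 19.3 against 176 CPM. These members lay mainly in cluster 17 in Hep-ADKWT (113 of its 669 barcodes) and in cluster 14 in Hep-ADKTg (70 of 773), so the libraries were taken one by one. In cluster 17 members, LSEC markers summed to 16210 CPM against 18167 CPM, and hepatocyte markers to 16970 against 6589 CPM. All 22 secreted hepatocyte protein genes were higher (median 1.40), where 5.44% of 2921 genes were called higher and 7.5% lower. Haemoglobin transcripts were lower, at a sum of 14010 against 119729 CPM. In cluster 14 members, LSEC markers summed to 9613 against 9718 CPM and hepatocyte markers to 65781 against 54700 CPM, with 20 of 22 secreted protein genes higher (0.30) and 1.88% of 2234 genes called higher and 10.3% lower. Against the rest of the same cluster, endothelial markers were thus slightly lower in cluster 17 and close in cluster 14, and hepatocyte markers higher. Against the whole LSEC-like class at or under 20%, where LSEC markers summed to 26545 CPM in Hep-ADKWT and 24976 CPM in Hep-ADKTg, the cluster 17 members stood at 61.1% and the cluster 14 members at 38.5%. All LSEC-like members together stood at 80.4% and 70.9%. Their ribosomal protein genes were higher in 16 of 36 in cluster 17 (−0.05) and in none of 36 in cluster 14 (−0.47). Nuclear-retained RNAs were higher in 4 of 4 (0.74) and 3 of 3 (0.82).

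Between the libraries' LSEC-like members 12.8% of 750 genes were called higher and 3.33% lower in Hep-ADKTg, beside 3.01% and 0.743% of 11171 genes at or under 20%. Of the 22 secreted hepatocyte protein genes, 21 were called higher in Hep-ADKTg members (median 1.46), and all 3 measured haemoglobin genes lower (−5.16). Mup17 stood at 2731 and 295 CPM in members and at 1182 and 67.0 CPM in the rest. Gpr182, a receptor gene of LSECs, stood at 753 and 1268 CPM in members and at 1174 and 1370 CPM in the rest. The hepatocyte RNA in LSEC-like barcodes was thus more abundant in Hep-ADKTg on both sides of the threshold.

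Adk, the gene overexpressed in Hep-ADKTg, was examined in the members of both libraries. In hepatocyte-like members it stood at 650 CPM (612 to 690) in Hep-ADKWT and 720 CPM (702 to 738) in Hep-ADKTg, and at or under 20% at 559 CPM (533 to 587) and 621 CPM (613 to 630). In cluster 8 the members stood at 637 CPM in Hep-ADKWT and 746 CPM in Hep-ADKTg, and the rest at 537 and 606 CPM. In the hepatocyte-like class as a whole and in cluster 8 the level was thus slightly higher in Hep-ADKTg on both sides of the threshold, and higher in members than in the rest. Other clusters did not all share this order. Members of cluster 20 stood at 743 CPM in Hep-ADKWT and 747 CPM in Hep-ADKTg. Members of the unnamed cluster 23 stood at 422 and 814 CPM, but its Hep-ADKTg barcodes at or under 20% at 1550 CPM. Whether transcripts of the transgene are counted under Adk was not tested.

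Between the libraries, 0.274% of 8745 genes were called higher and 0.286% lower in hepatocyte-like members of Hep-ADKTg than in those of Hep-ADKWT, beside 0.208% and 0.293% of 10570 genes at or under 20%. The genes with the highest ratios in members included the metallothionein genes Mt1 and Mt2, whose products bind zinc and copper. Mt2 stood at 106 CPM (99.6 to 113) in Hep-ADKTg and 15.1 CPM (9.80 to 22.3) in Hep-ADKWT members, and at 98.1 and 19.1 CPM at or under 20%. Noct, a circadian phosphatase of NADP(H), stood at 163 and 32.1 CPM in members and 111 and 31.9 CPM in the rest. Hamp, which encodes the iron hormone hepcidin, stood at 562 and 136 CPM in members and 705 and 316 CPM in the rest. For these genes the libraries thus differed in the same direction among members and among the rest. Gdf15 stood at 81.5 and 16.4 CPM in members, and at 34.0 and 11.1 CPM in the rest. Lower in Hep-ADKTg members were Phlda1, at 158 against 723 CPM, Foxq1, a forkhead transcription factor, at 91.9 against 364 CPM, Spp1, which encodes osteopontin, at 76.7 against 266 CPM, and Egr1, an immediate early transcription factor, at 51.3 against 142 CPM. At or under 20% the levels were 114 against 481 CPM for Phlda1 and 74.1 against 279 CPM for Foxq1.

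Some differences between the libraries were much larger in members than in the rest. Glul stood at 159 CPM in Hep-ADKTg and 360 CPM in Hep-ADKWT members, but at 57.8 and 62.5 CPM at or under 20%. Cyp7a1, the rate-limiting enzyme of bile acid synthesis from cholesterol, stood at 13.9 and 49.0 CPM in members and 7.11 and 10.1 CPM in the rest, and its ratio in members was 0.0090 within cluster 8. S100a8, a calcium-binding protein gene of neutrophils, stood at 98.6 and 26.0 CPM in members, but 749 of the 866 UMIs in Hep-ADKTg members came from 1 barcode (86.5%), and without it the log2 ratio was −0.63. That barcode also held 604 of 746 UMIs of S100a9 (81.0%). The neutrophil markers' sum of 189 CPM in hepatocyte-like Hep-ADKTg members, against 26.3 CPM in the rest, therefore rested largely on 1 barcode.

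Within cluster 8, where the members' depths were closer than in the whole class, 0.331% of 7561 genes were called higher and 0.225% lower in Hep-ADKTg members, beside 0.193% and 0.294% of 9860 genes at or under 20%. Noct stood at 224 and 40.5 CPM in members, Mt1 at 367 and 93.6 CPM and Phlda1 at 147 and 646 CPM. Spp1 stood at 98.4 and 363 CPM in members and at 129 and 261 CPM in the rest. All 36 ribosomal protein genes were lower in Hep-ADKTg members (median −0.27, with 0.01 over all genes), and 12 of 14 genes of mitochondrial genome expression and upkeep were higher (0.15). Respiratory chain genes were higher in 15 of 36 (−0.01), close to the median of all genes. All 4 haemoglobin genes were called lower (−4.09).

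The make-up of the mitochondrial UMIs was not used by the rule, which took only their sum. Among the 3 genes that mark these barcodes, mt-Nd1, a complex I subunit, took 6.06% of the members' mitochondrial UMIs in Hep-ADKWT and 5.67% in Hep-ADKTg. The share of mt-Co1, the catalytic subunit of complex IV, was 15% and 16.3%, and that of mt-Atp6, a subunit of the ATP synthase, 18.5% and 18.1%. The largest shares were thus close to each other in ratio. The 2 genes that flank mt-Tr were further apart in ratio: mt-Nd3 took 2.96% in Hep-ADKWT and 1.81% in Hep-ADKTg, and mt-Nd4l 1.0% and 1.69%. In percentage points mt-Nd4 differed more than either, at 7.09% and 8.44%.

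The opposite differences of mt-Nd3 and mt-Nd4l held in every set of members compared. Members outside cluster 12 were divided into 7 sets without overlap (clusters 2, 8, 10, 20 and 23, the LSEC-like class and all others). Cluster 12, with 752 Hep-ADKWT and 3 Hep-ADKTg members, was in no set. The sets therefore leave out 53.0% of the Hep-ADKWT members. The share of mt-Nd3 was lower in Hep-ADKTg in 7 of 7, with log2 ratios from −1.06 to −0.69, and that of mt-Nd4l higher in 7 of 7, from 0.31 to 0.76, all with counting intervals that excluded 0. In cluster 8 members mt-Nd3 took 3.68% in Hep-ADKWT and 1.90% in Hep-ADKTg, and mt-Nd4l 1.25% and 1.75%. In cluster 2 members mt-Nd3 took 2.74% and 1.48%, and mt-Nd4l 0.856% and 1.06%. The difference was not particular to members. In 9 sets of barcodes at or under 20% mt-Nd3 was lower in Hep-ADKTg in 9 and mt-Nd4l higher in 8; the exception was cluster 23, with 14 and 87 barcodes, where mt-Nd4l took 2.21% and 1.06%. In lymphocyte-like barcodes at or under 20%, mt-Nd3 took 2.14% and 1.23% and mt-Nd4l 0.407% and 0.604%.

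Other mitochondrial genes also differed between the libraries. The shares of mt-Nd4, which overlaps the end of mt-Nd4l, and of mt-Nd5 were higher in Hep-ADKTg in 7 of 7 member sets, by 0.11 to 0.23 and 0.28 to 0.45 on the log2 scale. That of mt-Nd6, a scarce message at 0.117% of the members' mitochondrial UMIs in Hep-ADKWT and 0.140% in Hep-ADKTg, was higher in 7 of 7 by 0.13 to 1.02, with the interval above 0 in 5. That of mt-Nd2 was higher in 3 and lower in 4. The shares of mt-Nd1 and of mt-Co2, a complex IV subunit, were lower in 7 of 7, with the interval below 0 in 6 for each. A separate pattern was shared by both libraries. In the deep cluster 8 members mt-Co3 took 15.9% in Hep-ADKWT and 16.0% in Hep-ADKTg, and in the shallow cluster 2 members 19.4% and 20.3%. For mt-Nd2 the shares were 6.73% and 6.56% in cluster 8 and 8.69% and 9.29% in cluster 2.

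**Figure D5:**
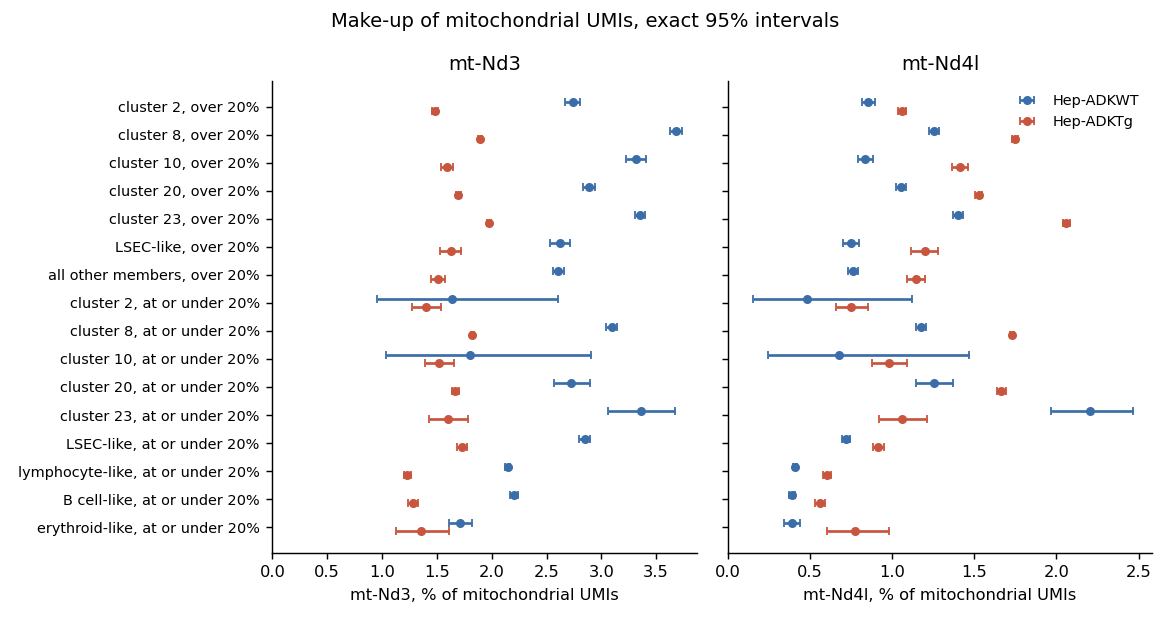
Share of mt-Nd3 (left) and mt-Nd4l (right) among mitochondrial UMIs (%, horizontal axis) in sets of barcodes over and at or under 20% mitochondrial UMIs, for Hep-ADKWT (blue) and Hep-ADKTg (red), with exact 95% intervals. In all 7 member sets mt-Nd3 is lower and mt-Nd4l higher in Hep-ADKTg.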

How the data were processed

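The deposited files hold UMI counts per gene and barcode as whole numbers, made with Cell Ranger 6.1.2 on GRCm38/mm10 per the submitters' processing notes, which also name R 4.1.0 and Seurat 4.0.2. Per the file headers an earlier Cell Ranger release wrote the matrices. The design text names SoupX for ambient RNA, and whether it was applied to the deposited counts is not known here. It states 15663 and 17462 cells, which are the barcodes analysed. The deposited UMI counts summed to 97135016 in Hep-ADKWT and 96481752 in Hep-ADKTg.

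Barcodes with at least 500 UMIs from both libraries were clustered together without the 13 mitochondrial genes (2000 variable genes, 30 principal components, 15 neighbours, Leiden resolution 1.0, 40 clusters) with Python 3.11.15, scanpy 1.11.5, leidenalg 0.10.2, numpy 2.4.6, scipy 1.17.1, pandas 2.3.3 and scikit-learn 1.9.0, and plotted with matplotlib 3.10.9. No doublets were removed; a Scrublet score above 0.2 would have removed 13 and 53 members. A class needed at least 3 enriched markers and 1 among the 10 leading genes, a rule set after the clusters were seen, so names may differ from the study's own. UMIs were summed per side, scaled to CPM of non-mitochondrial UMIs and compared as log2 ratios with 10 CPM added, for genes with at least 50 UMIs. Shares have exact (Clopper-Pearson) 95% intervals, CPM exact Poisson ones and ratios conditional binomial ones. Named genes were the 10 highest and 10 lowest ratios of the same sign in both libraries, limited to genes of 200 or more UMIs that were seen in 5% of barcodes, together with members of 18 fixed lists and the marker lists. The members and lists were chosen with earlier results of these data known. Coordinates and transcript lengths are from GENCODE M21 and sequences from GRCm38. The computations were tested on simulated counts. Alternatives to the threshold, depth minimum, clustering, scaling and side of comparison were tried.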

Additional observations from a re-analysis of the deposited data

Results flagged for a closer look

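The 4 haemoglobin genes went opposite ways in the libraries when hepatocyte-like members were compared with hepatocyte-like barcodes at or under 20%. In Hep-ADKWT all 4 were higher in members, with a median log2 ratio of 1.44 and a sum of 2416 against 872 CPM. In Hep-ADKTg 3 of 4 were lower, with a median of −0.20 and a sum of 294 against 350 CPM. Within cluster 8 the medians were 1.71 and −0.91. The difference between the libraries was not tested, since there is 1 library per genotype. Haemoglobin-rich barcodes made up more of the Hep-ADKWT library, where 1751 barcodes were erythroid cell-like against 237 in Hep-ADKTg. The part of erythroid RNA in these ratios was not tested.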

How the results depend on the processing

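No paired analysis was possible because each group is 1 library. Of 144 alternative values of the main results 52 stayed within their counting interval or within 1.5 times the main count and 92 moved. Of 1331 values of lists and single genes 1066 stayed, 251 moved and 14 changed sign. Runs within single clusters, without cluster 12, with unnamed clusters added to the hepatocyte-like class and without 1 barcode were chosen after seeing the data. The cause of each move was not tested except where the alternative itself sets it.

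The share of barcodes over the threshold in Hep-ADKWT (9.05%) was 13.4%, 10.7%, 7.94%, 7.21% and 5.29% at thresholds of 10%, 15%, 25%, 30% and 50%. It was 5.04% with a minimum of 1000 UMIs, 3.76% with 500 non-mitochondrial UMIs, 6.01% with 200 genes and 4.52% without cluster 12. In Hep-ADKTg (14.9%) the thresholds gave 24.2%, 18.9%, 12.8%, 11.2% and 4.98%, and the UMI minimums 12.1% and 9.57%. Hep-ADKTg was the higher at all of these settings except the threshold of 50%.

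Hepatocyte-like barcodes made up 19.6% and 10.6% of the Hep-ADKWT members at resolutions 0.5 and 2.0 and 7.19% with mitochondrial genes kept (main 16.5%). In Hep-ADKTg (81.3%) they made up 39.6% at resolution 2.0, 24.8% with mitochondrial genes kept, 12.0% with each library clustered on its own and 78.6% at a threshold of 10%. The members in unnamed clusters were 57.7%, 64.8%, 71.5% and 45.6% in Hep-ADKWT at resolutions 0.5 and 2.0, with mitochondrial genes kept and with own clustering, and 47.7% and 67.0% at thresholds of 10% and 30%. In Hep-ADKTg they were 54.8%, 70.0% and 80.3% at resolution 2.0, with mitochondrial genes kept and with own clustering, and 8.76% and 16.2% at the thresholds. Of hepatocyte-like barcodes 41.1% in Hep-ADKWT and 26.8% in Hep-ADKTg were members; with unnamed cluster 5 added the shares were 15.3% and 24.8%, and with clusters 5 and 23 they were 18% and 27.3%, so the order of the libraries turned. LSEC-like barcodes made up 7.69% of Hep-ADKWT members with own clustering, and 17% and 7.35% at the thresholds, and 7.72% and 1.28% of Hep-ADKTg members at the thresholds.

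Counts of genes called 2-fold between hepatocyte-like members and the rest were 36 higher and 11 lower in Hep-ADKWT and 25 and 8 in Hep-ADKTg. With CPM of all UMIs they were 14, 177, 11 and 87, and with the mean over barcodes 413, 441, 12 and 16. Against barcodes at or under 10% they were 268, 115, 47 and 38. Thinning to 300 UMIs gave 39 lower in Hep-ADKWT and 45 lower in Hep-ADKTg, and cluster 8 alone 8 and 7 higher. Between the libraries' hepatocyte-like members (24 higher, 25 lower in Hep-ADKTg) thinning gave 97 and 68, the mean over barcodes 110 and 441, and CPM of all UMIs 16 lower.

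For LSEC-like members against the rest, 429 were higher and 961 lower in Hep-ADKWT and 471 and 1398 in Hep-ADKTg. CPM of all UMIs gave 146, 3193, 77 and 2883, thinning 122, 445, 186 and 764, and a minimum of 200 UMIs per gene 164, 518, 253 and 722. The mean over barcodes gave 677 and 1899 in Hep-ADKWT and 2153 lower in Hep-ADKTg. Cluster 17 gave 159 and 219, and cluster 14 gave 42 and 231. Between the libraries' LSEC-like members (96 higher, 25 lower) thinning gave 43 and 11, CPM of all UMIs 12 lower and the mean over barcodes 75 lower.

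Log2 ratios that changed sign in Hep-ADKWT hepatocyte-like members were Oat, at −0.067 after thinning, −0.10 as a mean over barcodes and −0.041 within cluster 8, and, within cluster 8, Cyp2a5 (−0.25), Cyp2c37 (−0.50), Mup17 (−0.086) and Mup9 (−0.0052). Between the libraries S100a8 turned to −1.43 after thinning, −0.92 as a mean over barcodes and −0.63 without the barcode with the most S100a8 UMIs, and Cyp7a1 to 0.0090 within cluster 8. In Hep-ADKTg LSEC-like members, cluster 14 alone gave 0.024 for the haemoglobin median and 0.095 for Ptprc. As a mean over barcodes mt-Nd2 turned to 0.038.

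The log2 ratio of the mt-Nd3 share (−0.71) was −0.58 as a mean over barcodes, −0.68 at a threshold of 30% and −0.78 without cluster 12. That of mt-Nd4l (0.76) was 0.90, 0.81 and 0.63. Depth limits the shallow members most: with under 200 genes each in 589 Hep-ADKWT members, single barcodes could not be assigned to a cell type, and their profiles are sums over barcodes.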
